A study of Mus musculus with 23 samples.

Results

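The 10 circadian clock genes described here are Arntl (also called Bmal1), Clock, Npas2, Per1, Per2, Per3, Cry1, Nr1d1 and Nr1d2 (the REV-ERB genes) and Dbp. They were taken by gene symbol from the quadriceps and epididymal fat gene count tables of a study of pancreatic cancer cachexia, in which all 10 were present, among 12831 genes in quadriceps and 16962 in fat. Each of the 23 libraries came from 1 male C57BL/6J mouse, operated on at 8 weeks of age, whose own genome was not edited. No tumor mice had sham surgery (3 quadriceps and 4 fat libraries). KPC mice were injected in the pancreas with KPC cells, a line from a pancreatic tumor of a genetically engineered male mouse whose tumor alleles were switched on by Pdx1-Cre, as a single clone that had received a CRISPR plasmid with a null guide (4 quadriceps and 4 fat libraries). KPC IL6KO mice received a single clone of the same line in which Il6 was edited (4 quadriceps and 4 fat libraries), so that the tumor cells lacked IL-6 while the host stroma still had the gene. Each tumor genotype is therefore represented by 1 clone, and quadriceps and fat libraries were prepared separately. The study reported larger tumors in KPC than in KPC IL6KO mice, and no correlation of tumor mass with quadriceps mass. The part of tumor size in the values given here was not tested. The labels number the samples 1 to 4 in quadriceps and 5 to 8 in fat, and the sources used here do not say whether any mouse gave both tissues. The groups were ended together, and the time of day of tissue collection is not given in the sources used here. In all that follows a change of level and a shift of phase of a rhythmic transcript cannot be told apart.

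The mammalian clock is a transcriptional loop that runs in nearly every cell, muscle fibers and adipocytes included. ARNTL pairs with CLOCK or NPAS2 and activates genes through E-box sequences, among them the Per, Cry, Nr1d and Dbp genes. PER and CRY proteins return to repress that pair, REV-ERB proteins repress Arntl through sites they share with the activating ROR receptors, and DBP, a PAR-bZIP factor, carries the rhythm to output genes through D-box sequences. In normal tissue Arntl therefore peaks in opposite phase to Dbp and Nr1d1.

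The gene starts of the members differ in which of these elements lie close to them, which is why 3 upstream windows are shown. RefSeq upstream sequence (GRCm38.p6, 250 bases before an annotated start) was available for 9 of the 10 members, and the E-box letters CACGTG were found before Per1 and Cry1 and the D-box letters TTATGTAA 2 times before Per3 (capitals mark the motifs). Arntl, Clock and Per1 had windows before several starts, and the other Per1 window (chr11:69099902-69100151) held no such letters. The Per1 window shown is chr11:69098699-69098948 on the plus strand with its E-box starting 166 bases before the start. The Cry1 window is chr10:85185055-85185304 on the minus strand with its E-box 60 bases before the start. The Per3 window is chr4:151044666-151044915 on the minus strand with D-boxes 205 and 158 bases before the start.
Per1: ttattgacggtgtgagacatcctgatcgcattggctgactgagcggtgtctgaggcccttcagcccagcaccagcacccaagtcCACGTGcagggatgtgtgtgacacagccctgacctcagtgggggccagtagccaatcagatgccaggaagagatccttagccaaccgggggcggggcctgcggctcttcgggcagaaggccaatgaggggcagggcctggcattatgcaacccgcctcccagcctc
Cry1: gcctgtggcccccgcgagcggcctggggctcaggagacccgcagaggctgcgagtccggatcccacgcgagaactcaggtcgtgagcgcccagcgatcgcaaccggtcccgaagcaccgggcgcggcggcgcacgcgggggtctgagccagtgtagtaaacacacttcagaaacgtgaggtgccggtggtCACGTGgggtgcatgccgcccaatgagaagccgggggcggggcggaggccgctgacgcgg
Per3: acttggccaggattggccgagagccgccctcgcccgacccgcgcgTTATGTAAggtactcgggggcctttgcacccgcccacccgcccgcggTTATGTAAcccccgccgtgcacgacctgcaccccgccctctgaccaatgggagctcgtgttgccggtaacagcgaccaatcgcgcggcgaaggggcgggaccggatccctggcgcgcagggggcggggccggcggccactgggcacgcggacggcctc
CACGTG occurred in 6.02% of all 32851 windows of this kind, a D-box (TTATGTAA or TTACGTAA, either strand) in 0.932%, and the core of a site for ROR and REV-ERB receptors (TAGGTCA or TGGGTCA, either strand) in 5.38%. No member window held the last of these. A match of letters is not evidence that a factor bound there, and the windows leave out more distant elements.

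Library totals were 19259763 to 74907810 counts in quadriceps and 26306377 to 56308545 in fat. Levels are given as CPM, counts relative to the library total after scaling by TMM, and genes were compared across all 3 groups of a tissue with the quasi-likelihood test of edgeR. FDR is the p-value of that test adjusted by Benjamini-Hochberg over all genes of the tissue, and a gene was called higher or lower at FDR of at most 0.05 with a fold change (FC) of at least 1.5. Muscle markers (7 of 7 measured) made up 11.4% to 19.1% of quadriceps counts. Fat libraries also held transcripts of the adjacent epididymis (14 of 14 markers), at 0.0891% to 9.22% of counts, and none of these 14 genes was in the quadriceps table. Adipocyte markers (7 of 7) summed to 1116 to 20061 CPM in fat. Per gene, libraries of a group varied by a common CV of 22.7% in quadriceps and 63.5% in fat.

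In quadriceps of KPC mice the activator genes stood high and Dbp was down to a few CPM. Arntl rose 8.54-fold, Npas2 5.24-fold, Clock 2.34-fold and Per1 2.02-fold against no tumor mice, while Per3 fell 3.38-fold and Dbp fell 45.4-fold. Per2, Cry1, Nr1d1 and Nr1d2 were not called. That is 6 of 10 members called, 4 higher and 2 lower, beside 55.7% of all genes tested (26.7% higher and 29% lower), so the count of members is near the share of the whole table. The median log2FC over the 10 members was 0.45 beside -0.03 over all genes. Of 10 members, 6 had groups that did not overlap between mice, 4 higher and 2 lower, beside 65.3% of all genes (32.3% higher and 33% lower). At an unadjusted p under 0.05 there were 7 members, beside 70.3% of all genes. DESeq2 (56.5% of genes called) and the likelihood ratio test of edgeR (56.5% called) called 6 members each.

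**Figure D1:**
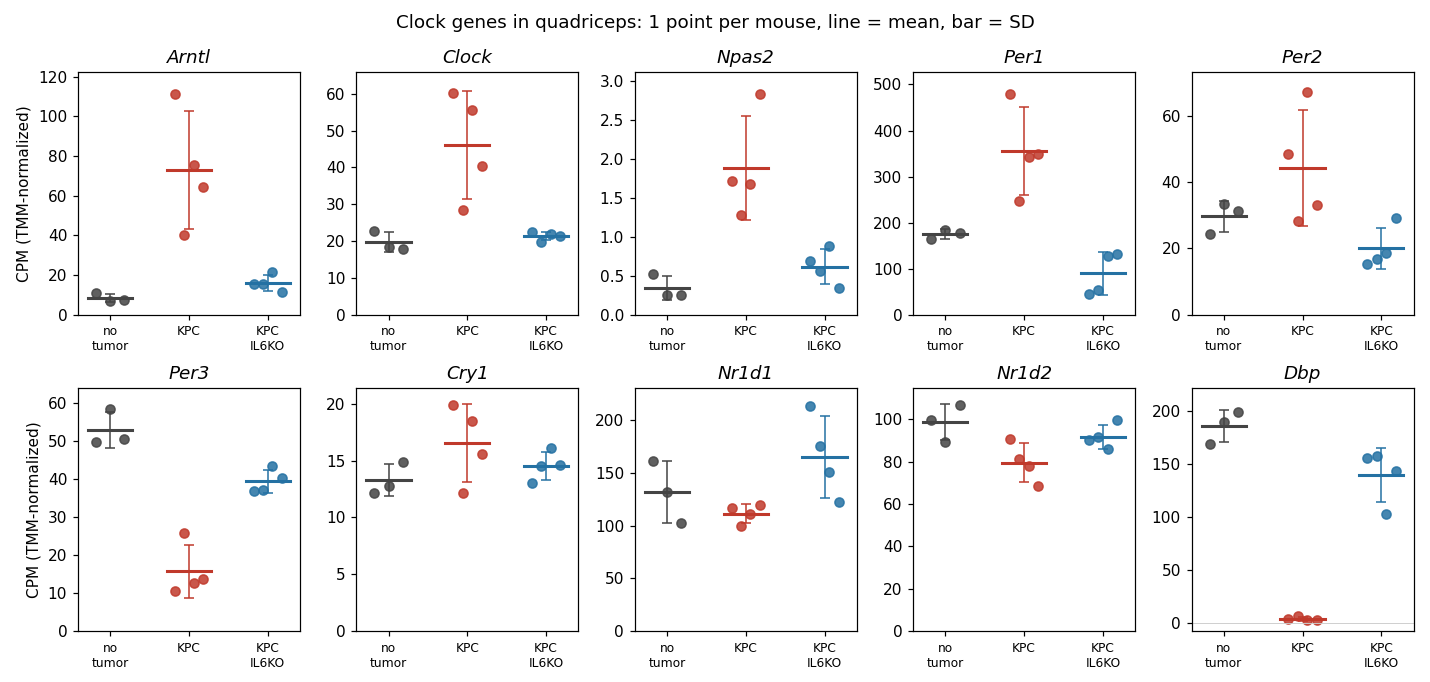
TMM-normalized CPM (linear axis) of each clock gene in quadriceps, with 1 point per mouse, a line at the group mean and a bar for the SD. Arntl and Npas2 stand highest in the 4 KPC mice, and Dbp lies at 2.72 to 6.33 CPM in KPC mice, below every mouse of the other groups.

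Arntl encodes the obligate partner of the activating pair. It lies on chromosome 7 from 113207465 to 113314126 on the plus strand (GRCm38, GENCODE vM21). Its level in quadriceps was 10.8, 7.19 and 7.58 CPM in no tumor mice, 111, 40.3, 75.5 and 64.7 CPM in KPC mice and 15.4, 15.3, 21.7 and 11.6 CPM in KPC IL6KO mice. Every KPC mouse stood above every mouse of the other groups, and the mean was 73 ± 29.6 CPM (SD, n = 4) in KPC against 8.51 ± 1.95 CPM (SD, n = 3) in no tumor (log2FC 3.09, SE 0.34, FDR 1.51e-05, edgeR).

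Clock, whose protein is the usual partner of ARNTL, measured 22.8, 18.4 and 17.8 CPM in no tumor mice, 60.2, 28.4, 55.5 and 40.3 CPM in KPC mice and 22.6, 19.8, 21.8 and 21.5 CPM in KPC IL6KO mice. The KPC mice again stood above all others, with the smallest KPC value well under the other 3 (log2FC 1.23, SE 0.22, FDR 0.000443, edgeR). Npas2, which can take the place of Clock, was the scarcest member, at 0.519, 0.255 and 0.256 CPM in no tumor mice, 1.72, 1.28, 1.69 and 2.84 CPM in KPC mice and 0.689, 0.561, 0.881 and 0.343 CPM in KPC IL6KO mice. The counts behind these Npas2 values were 5 to 30 in no tumor libraries and 75 to 151 in KPC libraries, and the KPC range lay above the others (log2FC 2.39, SE 0.42, FDR 0.000395, edgeR).

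The Per and Cry genes, which encode the repressors of the loop, did not move as a block. Per1 measured 165, 185 and 177 CPM in no tumor mice, 480.4, 248, 343 and 349.9 CPM in KPC mice and 44.7, 53.9, 128 and 132 CPM in KPC IL6KO mice. KPC mice were above and KPC IL6KO mice below the no tumor mice without overlap (log2FC 1.02, SE 0.36, FDR 0.0267 for KPC against no tumor, edgeR). The Per1 call did not hold without no tumor mouse 1, 2 or 3 or without KPC mouse 1 (FDR 0.0594 to 0.0713), nor with scaling to plain library totals (log2FC 0.80, FDR 0.0614). Per2 measured 24.4, 33.3 and 31.4 CPM in no tumor mice, 48.5, 28.3, 67 and 33.2 CPM in KPC mice and 15.4, 16.9, 18.7 and 29.1 CPM in KPC IL6KO mice. Its KPC and no tumor ranges overlapped and it was not called (log2FC 0.58, SE 0.30, FDR 0.103, edgeR), although it passed without KPC mouse 2 (log2FC 0.74, FDR 0.0361).

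Per3, the member with D-box letters in its upstream window, went the other way. It measured 49.9, 58.5 and 50.6 CPM in no tumor mice, 10.7, 25.8, 12.6 and 13.7 CPM in KPC mice and 36.9, 37.2, 43.4 and 40.3 CPM in KPC IL6KO mice. All KPC mice were below all others (log2FC -1.76, SE 0.24, FDR 7.59e-05, edgeR). Cry1 measured 12.2, 12.8 and 14.9 CPM in no tumor mice, 19.9, 12.1, 18.5 and 15.6 CPM in KPC mice and 13, 14.5, 16.1 and 14.6 CPM in KPC IL6KO mice, with overlapping groups (log2FC 0.32, SE 0.16, FDR 0.105, edgeR).

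The REV-ERB genes were not called against no tumor. Nr1d1 measured 161, 132 and 103 CPM in no tumor mice, 117, 99.4, 111 and 119 CPM in KPC mice and 214, 175, 151 and 122 CPM in KPC IL6KO mice, and the KPC mice lay inside the no tumor range or just under it (log2FC -0.24, SE 0.19, FDR 0.266, edgeR). Nr1d2 measured 99.8, 89.5 and 107 CPM in no tumor mice, 90.5, 81, 77.8 and 68.3 CPM in KPC mice and 90.0, 91.5, 85.7 and 99.6 CPM in KPC IL6KO mice. Its difference between KPC and no tumor passed the FDR but not the fold limit (log2FC -0.31, SE 0.11, FDR 0.0276, edgeR).

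Dbp had the largest change of any member. It lies on chromosome 7 from 45705088 to 45710203 on the plus strand. Its level in quadriceps was 169, 190.3 and 199 CPM in no tumor mice, 3.96, 6.33, 2.72 and 3.37 CPM in KPC mice and 156, 158, 103 and 144 CPM in KPC IL6KO mice. The KPC mice had 166 to 370 Dbp counts against 3885 to 9762 in no tumor libraries, and the means were 186 ± 15.4 CPM in no tumor (SD, n = 3) and 4.09 ± 1.58 CPM in KPC mice (SD, n = 4) (log2FC -5.51, SE 0.28, FDR 2.65e-07, edgeR). By FDR, Dbp ranked 10 and by size of change 37 among the 12831 genes. In whole tissue fewer cells of a type and less RNA per cell cannot be told apart, and this holds for each value given here.

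Among the 4 KPC mice, mouse 2 lay closest to the no tumor mean for all 6 called members, and for 5 of the 7 other loop genes called (Cry2, Arntl2, Hlf, Nfil3 and Bhlhe41). This was noticed after the values were seen. Whether mouse 2 also lay closest for most of the other called genes was not tested. Over all genes, 7147 were called in KPC against no tumor quadriceps by edgeR. Without KPC mouse 2 that count was 7523, and without KPC mouse 1, 3 or 4 it was 6947, 6874 and 7300 in that order. Over the 11 libraries, with group means removed, Arntl correlated with Clock at Pearson r of 0.83 and Spearman rho of 0.78 and with Dbp at -0.65 and -0.58. Per3 stood at -0.74 and -0.64, Cry1 at 0.70 and 0.44, Npas2 at 0.61 and 0.65, and Nr1d1 at 0.43 and 0.48, while Per1, Per2 and Nr1d2 were between 0.10 and 0.33 by Pearson r. These describe the libraries, which share their depth and scaling.

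Dbp and Nr1d1 share exon sequence with genes on the opposite strand, and the strand setting of the authors' counting is not given in the sources used here. Dbp shares 539 exon bases with Sphk2, a sphingosine kinase gene, and reads from that stretch cannot be assigned without strand. Sphk2 rose in KPC quadriceps from 19.1 ± 0.434 to 35.4 ± 1.77 CPM (log2FC 0.89, SE 0.09, FDR 1.05e-05, edgeR), opposite to Dbp. Nr1d1 shares 263 exon bases (8.55%) with Thra, the thyroid hormone receptor alpha gene, which fell from 78.1 ± 4.36 to 47.5 ± 9.51 CPM (log2FC -0.72, SE 0.14, FDR 0.00069, edgeR). Arntl shares 33 bases (0.439%) with the antisense gene Gm45355, which is not among the genes tested.

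Summed over each marker list in quadriceps, the muscle markers stood apart in KPC mice and those of other cells overlapped between groups. Muscle markers took 16.7% to 18.9% of counts in no tumor, 11.4% to 13.8% in KPC and 17.9% to 19.1% in KPC IL6KO libraries. Adipocyte markers (7 of 7) summed to 354 to 1605, 149 to 774 and 166 to 371 CPM in the same order, endothelial markers (4 of 4) to 165 to 229.6, 144 to 239 and 186 to 251 CPM, and leukocyte markers (8 of 10) to 67.7 to 94.1, 39.5 to 143 and 72.2 to 107 CPM. Single markers did not all follow the sum of their list. Against no tumor, 1 of 7 muscle, 2 of 7 adipocyte and 2 of 4 endothelial markers were called lower in KPC mice. Of 8 leukocyte markers 3 were called higher and 2 lower, beside 55.7% of all genes called. That list ranged from Adgre1 (log2FC -1.54) to S100a8 (log2FC 6.27). The part of these cells in the clock gene values was not tested.

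**Figure D2:**
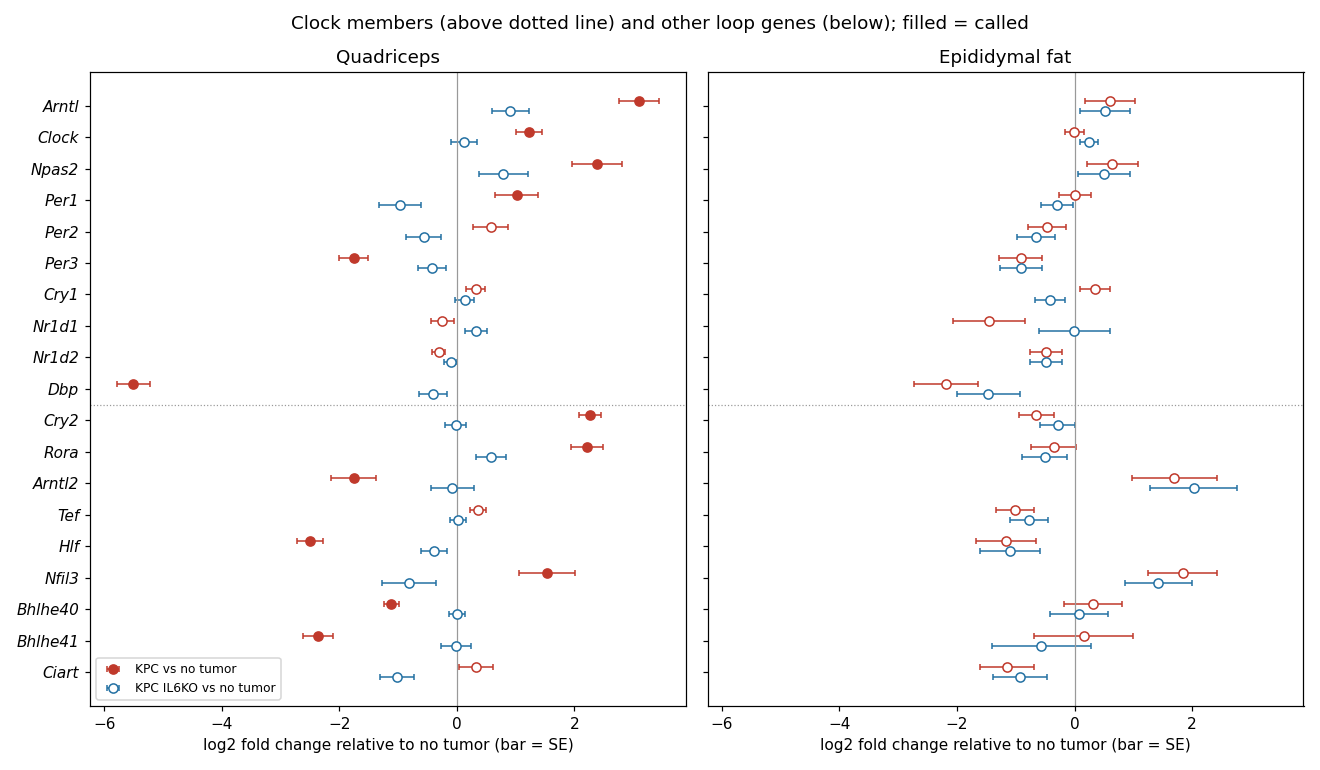
Log2 fold change against no tumor (x axis, bar for the SE) of the 10 clock genes and, under the dotted line, 9 other loop genes, in quadriceps (left) and epididymal fat (right), with filled points for called genes. Only KPC quadriceps has filled points, from -5.51 for Dbp to 3.09 for Arntl, and every KPC IL6KO point in quadriceps lies within about 1 unit of 0.

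With IL-6 deleted from the tumor cells, no clock gene of quadriceps passed the test against no tumor mice, though 4 did not overlap. None of the 10 members was called, nor was any of the 12831 genes (0% called by the quasi-likelihood test, with 6.91% at an unadjusted p under 0.05). DESeq2 called 0.748% and the likelihood ratio test of edgeR 0.74% of genes, and 0 members in either case. By the quasi-likelihood test 2 members had an unadjusted p under 0.05. These were Arntl, at 16 ± 4.22 CPM (SD, n = 4) (log2FC 0.91, SE 0.31, FDR 0.52, edgeR), and Per1, at 89.8 ± 46.9 CPM (SD, n = 4) (log2FC -0.97, SE 0.35, FDR 0.547, edgeR).

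The Arntl, Per1, Per3 and Dbp values of KPC IL6KO mice nevertheless did not overlap those of no tumor mice, 4 of 10 members beside 15.5% of all genes. Arntl was above (7.54% of all genes), and Per1, Per3 and Dbp were below (8.01%). The difference from no tumor was small beside that of KPC mice for Per3 (log2FC -0.43, SE 0.24, FDR 0.876, edgeR) and Dbp (log2FC -0.41, SE 0.24, FDR 0.876, edgeR). Per1 differed among KPC IL6KO mice themselves, with mice 1 and 2 at 44.7 and 53.9 CPM and mice 3 and 4 at 128 and 132 CPM.

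The remaining members were not called and overlapped the no tumor values. Log2FC was 0.12 (SE 0.21) for Clock, 0.79 (SE 0.42) for Npas2, -0.57 (SE 0.29) for Per2 and 0.13 (SE 0.16) for Cry1. For the REV-ERB genes it was 0.32 (SE 0.19) for Nr1d1 and -0.10 (SE 0.11) for Nr1d2. These values do not show that the levels were equal.

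Set directly against KPC IL6KO, KPC quadriceps differed in 7 of 10 members, 5 higher and 2 lower, beside 53.6% of all genes (26.4% higher and 27.3% lower). The groups did not overlap in 7 members, 4 higher and 3 lower, beside 62% of all genes (31.2% higher and 30.8% lower). DESeq2 (54.4% of genes called) and the likelihood ratio test (54.4% called) called 7 members each. This comparison shares the KPC mice with the one against no tumor, so its values are not independent of those. Arntl (log2FC 2.19, SE 0.29, FDR 5.07e-05), Clock (log2FC 1.11, SE 0.20, FDR 0.000431) and Npas2 (log2FC 1.60, SE 0.35, FDR 0.00167) were higher in KPC by edgeR. Per1 (log2FC 1.98, SE 0.34, FDR 0.000309) and Per2 (log2FC 1.14, SE 0.27, FDR 0.00292) were also higher by edgeR, the KPC and KPC IL6KO ranges of Per2 overlapping slightly. Per3 (log2FC -1.33, SE 0.23, FDR 0.00033) and Dbp (log2FC -5.10, SE 0.27, FDR 2.82e-07) were lower by edgeR.

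Nr1d1 was at 112 ± 8.92 CPM (SD, n = 4) in KPC and 166 ± 38.8 CPM (SD, n = 4) in KPC IL6KO quadriceps, below the fold limit of a call (log2FC -0.57, SE 0.18, FDR 0.0126, edgeR). It passed that limit without KPC IL6KO mouse 3 or 4 or KPC mouse 1 or 4 (log2FC -0.69 to -0.59). Cry1 (log2FC 0.18, SE 0.15, FDR 0.293) and Nr1d2 (log2FC -0.21, SE 0.10, FDR 0.0973) were not called by edgeR.

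The other genes of the loop went in both directions in KPC quadriceps. Of 10 listed, 9 were measured (Rorb was not in the table), and 3 were called higher and 4 lower, with a median log2FC of 0.32, beside 55.7% of all genes called. Cry2, the second cryptochrome, was at 50.5, 66.2 and 72.1 CPM in no tumor and 375, 236, 323 and 278 CPM in KPC mice without overlap (log2FC 2.27, SE 0.18, FDR 2.48e-06, edgeR). Rora, whose product is a receptor that activates Arntl, was also higher (log2FC 2.22, SE 0.27, FDR 3.21e-05, edgeR). Nfil3, which encodes a repressor at D-boxes, was at 33.8, 33.6 and 40.1 CPM in no tumor and 228, 38, 63.4 and 85.5 CPM in KPC mice, with KPC mouse 1 far above the other 3 (log2FC 1.53, SE 0.48, FDR 0.0131, edgeR).

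Hlf, a PAR-bZIP factor like DBP, fell (log2FC -2.49, SE 0.22, FDR 4.14e-06, edgeR), while Tef, the other PAR-bZIP gene, was at 429 ± 40.1 CPM in no tumor and 549.7 ± 94 CPM in KPC mice and not called (log2FC 0.36, SE 0.13, FDR 0.0301, edgeR). The repressor genes Bhlhe40 (log2FC -1.11, SE 0.13, FDR 2.82e-05) and Bhlhe41 (log2FC -2.37, SE 0.26, FDR 1.36e-05) fell by edgeR, and so did Arntl2, the scarce paralog of Arntl (log2FC -1.76, SE 0.38, FDR 0.00158). Ciart, another repressor gene of the pair, was not called (log2FC 0.32, SE 0.29, FDR 0.34, edgeR).

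In KPC IL6KO quadriceps 0 of these 9 genes were called against no tumor, and 2 had an unadjusted p under 0.05 by edgeR, Ciart (log2FC -1.02, FDR 0.363) and Rora (log2FC 0.58, FDR 0.699). Log2FC of the rest was between -0.81 for Nfil3 and 0.02 for Tef. Against KPC IL6KO, 8 of the 9 were called in KPC, 4 higher and 4 lower, beside 53.6% of all genes, and Tef was not.

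Kinases and ubiquitin ligases that set how long PER and CRY proteins last were measured as a further list in KPC quadriceps. Of 13 listed, 12 were measured (Fbxl21 was not in the table), and 7 were called higher and 2 lower, with a median log2FC of 0.73, beside 26.7% higher and 29% lower of all genes and a median of -0.03. The largest rise was in Gsk3b, a kinase gene (log2FC 1.45, SE 0.20, FDR 7.54e-05, edgeR), and the largest fall in Usp2, a deubiquitinase gene that is itself a clock output (log2FC -1.44, SE 0.20, FDR 6.63e-05, edgeR). Against KPC IL6KO, 6 were called higher and 2 lower, beside 26.4% and 27.3% of all genes, again from Gsk3b (log2FC 1.20) to Usp2 (log2FC -0.83).

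Of 12 output genes, 6 were called higher and 4 lower in KPC quadriceps, with a median log2FC of 0.67, beside the same 26.7% and 29% of all genes. Usp2 is on this list as well and is counted in both. They ranged from Lonrf3, a RING finger gene (log2FC 2.68, SE 0.48, FDR 0.000449, edgeR), to Wee1, which encodes a cell cycle kinase and is a direct target of the ARNTL pair (log2FC -2.18, SE 0.25, FDR 2.04e-05, edgeR). Against KPC IL6KO, 6 were called higher and 2 lower (26.4% and 27.3% of all genes), from Klf15 (log2FC 2.39, SE 0.20, FDR 2.54e-06) to Wee1 (log2FC -1.42, SE 0.24, FDR 0.000251) by edgeR. In KPC IL6KO quadriceps 0 genes of either list were called. At an unadjusted p under 0.05 there were 1 of 12 kinase and ligase genes and 5 of 12 output genes, beside 6.91% of all genes.

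Ratios of counts within a library do not depend on how libraries are scaled to each other. The log2 ratio of Arntl to Dbp ran from -4.73 to -3.97 in no tumor quadriceps, from 2.67 to 4.82 in KPC and from -3.64 to -2.24 in KPC IL6KO. The order of both transcripts was thus turned over in each KPC mouse and in none of the others. The KPC IL6KO mice lay on the no tumor side, but each stood above all 3 no tumor mice. Arntl to Nr1d1 was -4.20 to -3.76 in no tumor, -1.30 to -0.07 in KPC and -3.80 to -2.80 in KPC IL6KO mice. The groups were less separate in Arntl to Per2, at -2.21 to -1.18 in no tumor, 0.17 to 1.20 in KPC and -1.33 to 0.21 in KPC IL6KO mice. There 3 of the 4 KPC IL6KO mice lay nearer to KPC, at -0.14 to 0.21, and 1 within the no tumor range.

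Closely related genes also parted within the KPC libraries. The log2 ratio of Per1 to Per3 was 1.66 to 1.81 in no tumor, 3.26 to 5.49 in KPC and 0.28 to 1.72 in KPC IL6KO quadriceps. Cry2 to Cry1 stood at 2.05 to 2.37, 4.13 to 4.29 and 1.86 to 2.24 in the same order, and Tef to Dbp at 1.18 to 1.23, 6.35 to 7.53 and 1.40 to 2.11. Nr1d1 to Dbp, a pair that normally rises and falls in similar phase, was -0.95 to -0.07 in no tumor, 3.97 to 5.35 in KPC and -0.24 to 0.55 in KPC IL6KO mice.

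**Figure D3:**
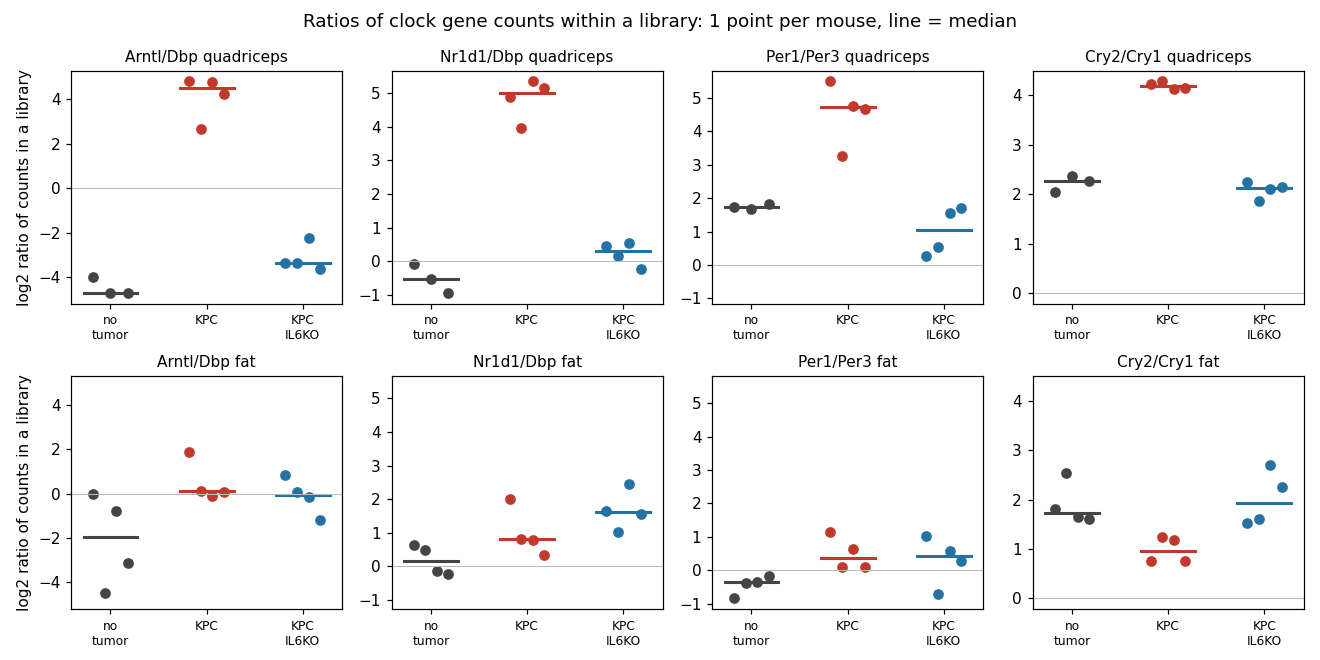
Log2 ratio of the counts of 2 clock genes within each library (y axis, shared by both tissues for a pair), with 1 point per mouse and a line at the group median, in quadriceps (top) and fat (bottom). In quadriceps the KPC mice are apart from both other groups in all 4 ratios, and in fat the Arntl to Dbp ratio spreads from -4.47 to -0.0024 among no tumor mice.

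Per kilobase of exon, which allows genes to be compared, Dbp was the highest member in no tumor quadriceps at 62.2 ± 5.15 CPM per kb (SD, n = 3). Nr1d1 followed at 43.0 ± 9.46, Per1 at 31.2 ± 1.82 and Nr1d2 at 18.2 ± 1.60 CPM per kb, each apart from the next. Per3, Per2 and Cry1 came next at 5.51, 5.07 and 3.98 CPM per kb, with neighbours overlapping. Clock at 1.43, Arntl at 1.13 and Npas2 at 0.0717 CPM per kb closed the order, with Clock and Arntl overlapping.

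In KPC quadriceps Per1 led at 63.1 ± 17.0 CPM per kb (SD, n = 4), apart from Nr1d1 at 36.3 ± 2.90. Arntl moved to rank 4 at 9.70 ± 3.93 CPM per kb, overlapping Nr1d2 above and Per2 below. Dbp dropped to rank 9 at 1.37 ± 0.527 CPM per kb, above only Npas2. In KPC IL6KO quadriceps Nr1d1 and Dbp led at 53.8 ± 12.6 and 46.9 ± 8.58 CPM per kb and overlapped.

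By covariation within groups, the genes most like Arntl in quadriceps (11 libraries, 10511 genes whose log2 CPM averaged 1 or more) were Fam63a, Kmt2d, Pan2, Zfp740 and Med1, with Pearson r of 0.91 to 0.96. The most opposite were Mtus1, Gm14325, Oasl2, Gm14326 and Tbc1d8b, with r of -0.93 to -0.89. For Dbp the most like were Ky, Scoc, Camta2, Clec3b and Fez2 (r of 0.93 to 0.95), and the most opposite Clpx, Clasrp, Abcf3, Timm10 and Elac2 (r of -0.99 to -0.94). None of the listed loop genes was among them, and these are descriptions over 11 libraries that share depth and scaling.

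In epididymal fat the mice of a group differed more among themselves. None of the 10 members was called in any of the 3 comparisons, nor was any of the 16962 genes (0% called in each). The count over all genes depended on the fit. For KPC against no tumor it was 174 with only the groups compared and 322 with the epididymis share as a covariate. A newer quasi-likelihood fit called 16. No member was called in these 3 fits. For KPC against no tumor, 3 of 10 members had an unadjusted p under 0.05 by edgeR, beside 12.2% of genes, and all 3 were lower. These were Dbp (log2FC -2.19, SE 0.55, FDR 0.225), Per3 (log2FC -0.92, SE 0.36, FDR 0.353) and Nr1d1 (log2FC -1.45, SE 0.62, FDR 0.383). DESeq2 (3.45% of genes called) and the likelihood ratio test of edgeR (2.43% called) each called 1 member, Dbp, at FDR 0.00517 and 0.0115.

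**Figure D4:**
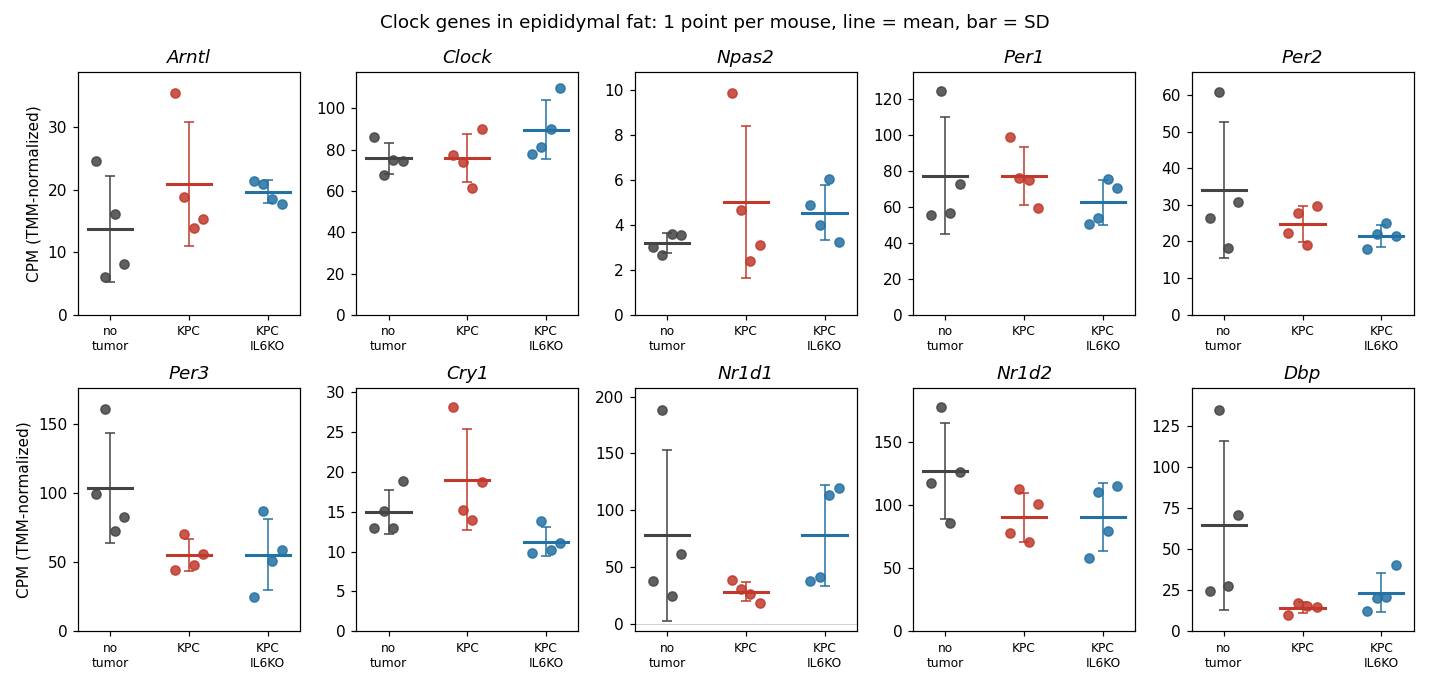
TMM-normalized CPM (linear axis) of each clock gene in epididymal fat, with 1 point per mouse, a line at the group mean and a bar for the SD. The no tumor mice spread widely, with 1 mouse (number 6) highest in Per1, Per2, Per3, Nr1d1, Nr1d2 and Dbp.

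Dbp in fat measured 24.6, 135, 27.6 and 70.9 CPM in no tumor mice, 9.58, 17.3, 15.1 and 14.7 CPM in KPC mice and 12.2, 20.3, 20.9 and 40.1 CPM in KPC IL6KO mice. Every KPC mouse was below every no tumor mouse, but the no tumor mice spanned 24.6 to 135 CPM. Without no tumor mouse 6 the log2FC was -1.53 (FDR 0.391, edgeR). Per3 measured 99.2, 161, 72.2 and 82.4 CPM in no tumor mice, 44.6, 70.6, 48.1 and 56.1 CPM in KPC mice and 24.6, 87.2, 50.7 and 58.4 CPM in KPC IL6KO mice, again with the KPC mice below the no tumor mice. These were the 2 of 10 members with groups that did not overlap, beside 10.9% of genes (4.39% lower).

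Nr1d1 measured 38.1, 188, 24.9 and 61.3 CPM in no tumor mice, 38.5, 30.7, 26.2 and 18.8 CPM in KPC mice and 38.1, 41.2, 113 and 119 CPM in KPC IL6KO mice. The no tumor mean rested on mouse 6, and without it the log2FC was -0.54 (FDR 0.686, edgeR). KPC IL6KO mice 7 and 8 stood high and mice 5 and 6 did not. Nr1d2 measured 117, 178, 85.9 and 126 CPM in no tumor mice, 77.6, 112, 70.6 and 101 CPM in KPC mice and 58, 110.5, 79.2 and 115 CPM in KPC IL6KO mice, with overlapping groups.

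The opposite-strand neighbours had a log2FC between KPC and no tumor fat of -0.32 (FDR 0.611, edgeR) for Sphk2, which overlaps Dbp, and -0.24 (FDR 0.798, edgeR) for Thra, which overlaps Nr1d1.

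The activators overlapped between all groups of fat. Arntl measured 24.6, 6.09, 16.1 and 8.16 CPM in no tumor mice, 35.5, 18.9, 13.9 and 15.3 CPM in KPC mice and 21.4, 21, 18.5 and 17.8 CPM in KPC IL6KO mice, with KPC mouse 5 highest and no tumor mice 6 and 8 lowest. Clock measured 86.1, 68, 75.1 and 74.3 CPM in no tumor mice, 77.7, 74.1, 61.6 and 90.0 CPM in KPC mice and 77.9, 81.3, 90.2 and 109.7 CPM in KPC IL6KO mice. Npas2 measured 3.03, 2.66, 3.6 and 3.56 CPM in no tumor mice, 9.9, 4.67, 2.39 and 3.12 CPM in KPC mice and 4.91, 4.01, 6.06 and 3.24 CPM in KPC IL6KO mice, and apart from KPC mouse 5 all values were between 2.39 and 6.06 CPM.

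Of the repressor genes, Per1 measured 55.3, 125, 56.4 and 72.7 CPM in no tumor mice, 98.7, 76.1, 75.1 and 59.5 CPM in KPC mice and 50.2, 53.8, 75.7 and 70.4 CPM in KPC IL6KO mice, with overlapping groups. Per2 measured 26.4, 60.9, 18.3 and 30.9 CPM in no tumor mice, 22.2, 27.6, 19.1 and 29.7 CPM in KPC mice and 17.8, 21.9, 25 and 21.5 CPM in KPC IL6KO mice, and apart from no tumor mouse 6 all values were at or below 30.9 CPM. Cry1 measured 12.9, 15.1, 13 and 18.8 CPM in no tumor mice, 28.1, 15.2, 14 and 18.8 CPM in KPC mice and 9.82, 13.9, 10.2 and 11 CPM in KPC IL6KO mice. Each KPC mouse was above each KPC IL6KO mouse in Cry1, by a narrow gap (log2FC 0.76, SE 0.25, FDR 0.664, edgeR). That was 1 of 10 members whose KPC and KPC IL6KO fat did not overlap, beside 4.33% of genes (0.637% higher and 3.69% lower).

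KPC IL6KO fat against no tumor had 2 members with an unadjusted p under 0.05 by edgeR, beside 9.34% of genes. They were Dbp (log2FC -1.46, FDR 0.45) and Per3 (log2FC -0.91, FDR 0.488). No member had groups that did not overlap, beside 2.01% of genes (0.489% lower). Without no tumor mouse 6 the Dbp difference was -0.81 (FDR 0.508, edgeR). KPC against KPC IL6KO fat had 2 such members, Cry1 and Nr1d1 (log2FC -1.45, FDR 0.77, edgeR), beside 6.26% of genes.

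Among the other loop genes in fat, 0 of 9 were called, while 3 genes of factors that bind D-boxes had groups that did not overlap. Hlf measured 74.4, 65.1, 54.5 and 56.6 CPM in no tumor and 15.8, 39, 25.4 and 30.9 CPM in KPC mice. Tef measured 148, 338, 116 and 204 CPM in no tumor and 95, 107, 87.2 and 109 CPM in KPC mice. Both were lower in every KPC mouse than in every no tumor mouse, as Dbp was, with a log2FC of -1.17 (FDR 0.394) for Hlf and -1.01 (FDR 0.28) for Tef by edgeR. Nfil3, the repressor at the same sites, measured 3.65 to 12.6 CPM in no tumor and 14.8 to 58.9 CPM in KPC mice, without overlap (log2FC 1.84, FDR 0.28, edgeR).

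Ciart was lower (log2FC -1.15, FDR 0.363) and Arntl2 higher (log2FC 1.70, FDR 0.386) in every KPC mouse than in every no tumor mouse (edgeR for both). Tef, Hlf and Ciart were below (4.39% of all genes) and Nfil3 and Arntl2 above (6.52%) without overlap. These were 5 of 9 with an unadjusted p under 0.05, beside 12.2% of genes. Cry2 (log2FC -0.65), Rora (log2FC -0.36), Bhlhe40 (log2FC 0.32) and Bhlhe41 (log2FC 0.15) overlapped. Against no tumor, 3 of the 9 had such a p in KPC IL6KO fat, Arntl2, Tef and Nfil3, and against KPC IL6KO 0 had it in KPC fat. In the 3 comparisons, 1, 0 and 0 of 13 kinase and ligase genes and 0, 1 and 1 of 12 output genes had such a p.

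**Figure D5:**
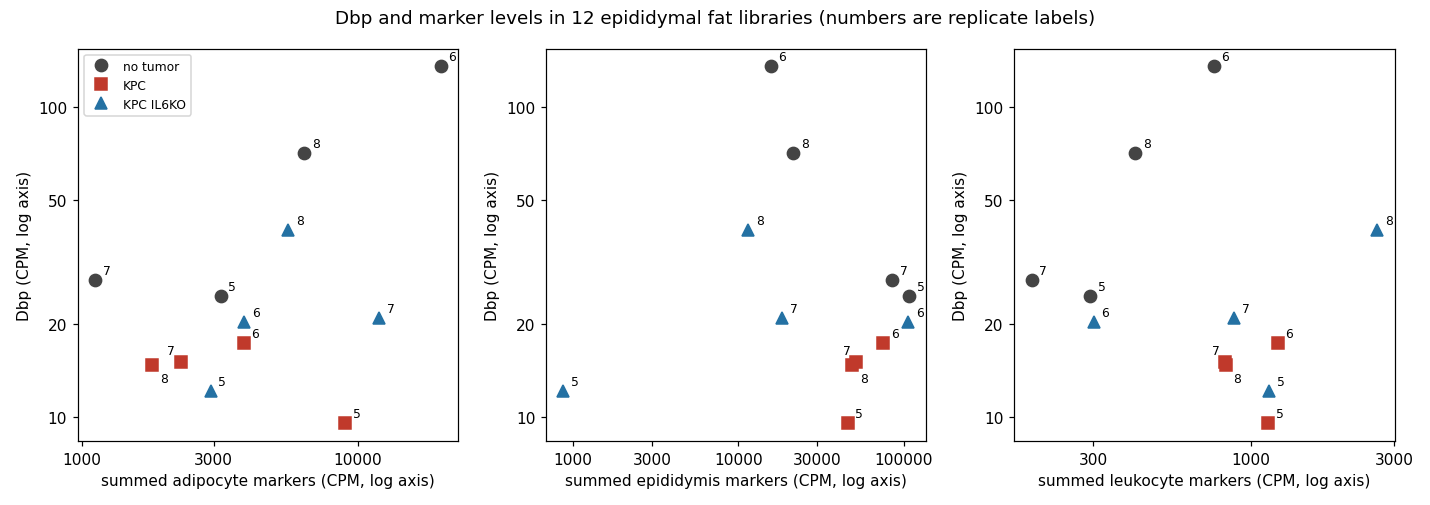
Dbp (CPM, log axis) against the summed CPM (log axis) of adipocyte, epididymis and leukocyte markers in the 12 fat libraries, with the replicate number beside each point. No tumor mice 6 and 8, highest in Dbp, hold 15664 and 21422 CPM of epididymis markers, against 85118 and 107738 CPM in no tumor mice 7 and 5.

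The cell content of the fat libraries differed between mice and, for some marker lists, between groups. No tumor mice 5, 6, 7 and 8 had Dbp at 24.6, 135, 27.6 and 70.9 CPM, epididymis markers at 9.15%, 1.49%, 8.42% and 2.41% of counts, and adipocyte markers summing to 3182, 20061, 1116 and 6390 CPM. Among no tumor mice the highest Dbp stood with the most adipocyte and least epididymis counts, but the other groups did not follow this order in full. KPC mouse 5 had the highest adipocyte sum of its group (9015 CPM) and the lowest Dbp (9.58 CPM). KPC IL6KO mouse 5, with 0.0891% epididymis counts, had the lowest Dbp of its group (12.2 CPM), and mouse 6, with 9.22%, had 20.3 CPM. Adipocyte markers of KPC IL6KO mice 5, 6, 7 and 8 summed to 2923, 3873, 11975 and 5595 CPM. In that group the lowest Dbp thus stood with the lowest adipocyte sum, while the highest Dbp, in mouse 8, did not stand with the highest. KPC mice had 4.62% to 7.30% epididymis counts. Leukocyte markers (10 of 10) summed to 187 to 756, 825 to 1232 and 301 to 2640 CPM in no tumor, KPC and KPC IL6KO fat. Endothelial markers (4 of 4) summed to 74.5 to 499.6, 191 to 635 and 181 to 487 CPM and mesothelial markers (4 of 4) to 205 to 376, 298 to 684 and 193 to 1350 CPM in the same order. Muscle markers (7 of 7) summed to 15.5 to 279, 8.73 to 11.4 and 93.9 to 2497 CPM in the same order, with KPC IL6KO mouse 8 highest. The muscle sums of KPC mice lay below every mouse of both other groups, and their leukocyte sums above every no tumor mouse.

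With the epididymis share as a covariate, Dbp had a log2FC of -2.05 (FDR 0.109) and Nr1d1 of -1.19 (FDR 0.372) between KPC and no tumor fat. Without no tumor mouse 6 and KPC IL6KO mouse 8 together, Dbp had a log2FC of -1.53 (FDR 0.319) and Per3 of -0.63 (FDR 0.636) by edgeR. The part of adipocytes, leukocytes and muscle in the clock gene values was not tested.

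Within fat libraries the log2 ratio of Arntl to Dbp was -4.47 to -0.0024 in no tumor, -0.12 to 1.89 in KPC and -1.18 to 0.82 in KPC IL6KO mice. Cry2 to Cry1 was 1.61 to 2.53 in no tumor, 0.75 to 1.25 in KPC and 1.52 to 2.70 in KPC IL6KO fat, so KPC mice were below both other groups where in quadriceps they were above. Per kilobase, Nr1d1 led in no tumor fat at 25.4 ± 24.4 CPM per kb (SD, n = 4), with Nr1d2, Dbp and Per1 overlapping it in turn. Dbp went from rank 3 (21.5 ± 17.2) in no tumor to rank 7 (4.73 ± 1.09) in KPC and rank 4 (7.81 ± 3.96) in KPC IL6KO fat.

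With group means removed, Arntl and Dbp in fat correlated at Pearson r of -0.83 and Spearman rho of -0.88 over 12 libraries. Dbp went with Nr1d1 (0.78 and 0.74), Nr1d2 (0.77 and 0.71) and Per2 (0.76 and 0.58). Most like Arntl in fat (13906 genes) were Top3b, Ncoa6, Zfp51, Pinx1 and Tmem62 (r of 0.92 to 0.95), and most opposite Mrps28, Myh14, Gfra2, Fbxo44 and Myl6b (r of -0.90 to -0.88). Most like Dbp were Popdc2, Cnst, Islr, Adra1a and Agap2 (r of 0.91 to 0.95), and most opposite Ccdc120, Gatad2b, Ppil1, Cdipt and Cops7a (r of -0.93 to -0.91).

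Whether the KPC response of a clock gene differed between tissues was tested in a joint fit of all 23 libraries over 12599 shared genes. The fit takes the libraries as independent, which the sources used here do not settle for mice that may have given both tissues. It also uses 1 estimate of the spread per gene for both tissues, whose common CVs were 22.7% in quadriceps and 63.5% in fat. The SE and FDR of each difference rest on that. The tissues were prepared separately, so tissue and library preparation cannot be told apart in the levels, while each response is taken within a tissue. The difference was called for 4 of 10 members, beside 36.9% of genes, so the count of members is near the share of all genes. The quadriceps response exceeded the fat response by 2.36 in Arntl (SE 0.55, FDR 0.00249, edgeR), 1.12 in Clock (SE 0.26, FDR 0.00233, edgeR) and 1.66 in Npas2 (SE 0.60, FDR 0.0351, edgeR) on the log2 scale, and in Dbp the difference was -3.42 (SE 0.65, FDR 0.000448, edgeR), the fall in quadriceps being the larger.

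The Npas2 difference lost its call in 8 of the 23 fits that left out a library (FDR 0.0559 to 0.100). The other 6 members were not called, with differences from -0.94 for Per3 (FDR 0.109) to 1.09 for Nr1d1 (FDR 0.226) by edgeR. Without no tumor fat mouse 6 the Nr1d1 difference was 0.19 (FDR 0.802), that of Per1 0.57 (FDR 0.319), that of Per2 0.49 (FDR 0.310) and that of Per3 -1.24 (FDR 0.0323, called) by edgeR. Of the other loop genes, Cry2 (2.81, FDR 1.84e-05), Rora (2.47, FDR 0.000741), Tef (1.27, FDR 0.0117) and Arntl2 (-3.54, FDR 0.0041) were called by edgeR, as were Bhlhe40 (-1.57) and Bhlhe41 (-2.65). That is 6 of 9.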

How the data were processed

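Quadriceps and epididymal fat RNA was sequenced in 23 libraries (11 quadriceps and 12 fat libraries). The authors aligned reads to mm10 with STAR and assigned uniquely mapped reads to genes with featureCounts 1.5.1, and the deposited values are raw counts per gene, 1 column per library. The submitters' processing notes also name edgeR 3.12.1. The authors removed 1 no tumor muscle sample as an outlier, which is not analysed here, and the rule by which low genes are absent from the tables and the strand setting of counting are not given in the sources used here. The labels and the study's methods differ in the library kit and the minimum RNA quality they name.

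From the deposited counts, each tissue was fitted as a whole table in edgeR 4.0.16 (R 4.3.3) with TMM scaling, filterByExpr (which removed 0 genes), all 3 groups in 1 fit and the quasi-likelihood test. P-values were adjusted by Benjamini-Hochberg over all genes, and genes were called at FDR of at most 0.05 and a fold change of at least 1.5. The SE of a log2FC was derived from that test, as the size of the log2FC divided by the square root of its F statistic. The difference between tissues was an interaction term over all 23 libraries, scaled jointly. The fits within a tissue (quasi-likelihood, likelihood ratio and DESeq2) and the quasi-likelihood test of the difference between tissues were tried on simulated counts. The other steps had no such test. Levels per kilobase used the summed exon length of GENCODE vM21 and upstream windows came from RefSeq. Library depths are in the report, and 3 counts corresponded to 0.0462 to 0.154 CPM.

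The members and the gene lists were chosen with earlier results of these data known. All members are named in both tissues, with the measured genes of the other loop list as used here (a further loop gene is not reported), the called genes with the largest and smallest change of the kinase and output lists, overlapping genes, and the 5 genes most and least like Arntl and Dbp. Groups came from the labels. No pair of libraries of a group agreed within sampling noise. Replicates of a tissue are separate mice, all tumors of a genotype coming from 1 clone. Alternatives were RLE scaling, DESeq2 1.42.0, the likelihood ratio test, a newer quasi-likelihood fit, no low-count filter, a minimum of 10 counts per library, a replicate block, fits of only the 2 groups compared, leaving out each library and, in fat, the epididymis markers left out or their share as a covariate. Scaling to plain library totals and leaving out 2 fat libraries were chosen after seeing the data.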

Additional observations from a re-analysis of the deposited data

Results flagged for a closer look

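The KPC response differed between quadriceps and fat for 4 of the 10 clock genes by the interaction term of edgeR over all 23 libraries. The difference, quadriceps minus fat on the log2 scale, was 2.36 for Arntl, 1.12 for Clock, 1.66 for Npas2 and -3.42 for Dbp, with FDR of 0.00249, 0.00233, 0.0351 and 0.000448, beside 36.9% of 12599 genes with such a difference. The count of members is near that share. In quadriceps each of the 4 genes separated every KPC mouse from every no tumor mouse, and in fat only Dbp did. The cell content of the fat libraries, given in the report, differed between mice and in part between groups, and its part in these differences was not tested. Over the 10 members in the groups of 4 mice, 0 of 50 sets of values held a mouse that stood apart by Dixon's criterion, where chance gives about 5%.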

How the results depend on the processing

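In simulated counts, fewer changed genes were recovered in fat than in quadriceps. The quasi-likelihood test recovered 92 of 198 genes changed by 2 on the log2 scale in fat (KPC against no tumor, 16904 genes). In quadriceps it recovered 193 of 200 (12831 genes). The changed genes were drawn from all fat genes in fat but from genes in both tissues in quadriceps. The part of the spread between libraries in this gap was therefore not tested. In KPC against no tumor fat, 0 members called became 1 with DESeq2 and 1 with the likelihood ratio test (Dbp, log2FC -2.20 and -2.19), beside 3.45% and 2.43% of all genes, while the other counts of members stayed within 1.5 times. In the simulated fat counts DESeq2 called 80 unchanged genes beside 138 recovered, the likelihood ratio test 43 beside 126, and the quasi-likelihood test 1 beside 92. Leaving out 1 library at a time gave 5 to 7 members called for KPC against no tumor quadriceps, 7 to 8 against KPC IL6KO, 3 to 5 for the difference between tissues and 0 in the other comparisons. Over all 12831 quadriceps genes the same fits called 6630 to 7523 for KPC against no tumor and 6586 to 7252 against KPC IL6KO. In the other comparisons within a tissue they called 0 to 15 genes. For the difference between tissues the count over all genes was not taken in these fits. Requiring 10 counts in every library removed Npas2 from quadriceps.

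Same-numbered libraries of different groups correlated at a median r of 0.06 in quadriceps and 0.17 in fat, beside -0.03 and -0.13 for libraries of different numbers. Of 11 quadriceps and 12 fat libraries, 4 and 3 correlated best with their own number. These values do not settle whether the replicate numbers pair the mice. With the replicate block, 5 members were called in KPC against no tumor quadriceps (Per1 at 0.89, FDR 0.0537), 7 against KPC IL6KO, 4 for the difference between tissues (Npas2 out at FDR 0.0511, Per3 in at -1.01, FDR 0.0424, edgeR) and 0 in fat. Over all genes that block called 7043 of 12831 in KPC against no tumor quadriceps, 6858 against KPC IL6KO and 0 in fat. Plain library totals moved the median of all genes to -0.24 in KPC against no tumor quadriceps, where Per1 lost its call. Nr1d1 in KPC against KPC IL6KO quadriceps passed the fold limit with plain totals (-0.70), 10 counts in every library (-0.60) and only the groups compared (-0.61). The Npas2 difference between tissues lost its call with only the groups compared (FDR 0.0513, edgeR). Per3 gained a call for that difference without KPC quadriceps mouse 2 (-1.32) or no tumor fat mouse 6 (-1.24), and Per2 without no tumor fat mouse 7 (1.14).

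These uncalled log2FC values changed sign, and the causes were not tested. The doubted libraries are no tumor mouse 6 and KPC IL6KO mouse 8 of fat. For Arntl, KPC against KPC IL6KO fat, the value of 0.087 became -0.13 with the epididymis covariate, -0.030 with the replicate block and ran from -0.29 to 0.24 over leave-one-out fits. For Clock, KPC against no tumor fat, the value of -0.00079 became 0.086 with epididymis markers removed, 0.029 with only the groups compared, 0.082 with plain library totals and ran from -0.094 to 0.087 over leave-one-out fits. For Cry1, difference between tissues, the value of -0.13 ran from -0.29 to 0.11 over leave-one-out fits. For Npas2, KPC against KPC IL6KO fat, the value of 0.14 ran from -0.42 to 0.37 over leave-one-out fits. For Nr1d1, KPC IL6KO against no tumor fat, the value of -0.0021 became 0.00041 with epididymis markers removed, 0.00054 with only the groups compared, 0.068 with plain library totals, 0.28 with the replicate block, 0.63 without both doubted libraries and ran from -0.30 to 0.91 over leave-one-out fits. For Nr1d2, KPC against KPC IL6KO fat, the value of -0.0067 became 0.018 with 10 counts in every library, 0.014 with DESeq2, 0.059 with epididymis markers removed, 0.017 with only the groups compared, 0.044 with plain library totals, 0.0067 with the replicate block, 0.014 with RLE scaling, 0.13 without both doubted libraries and ran from -0.17 to 0.13 over leave-one-out fits. For Nr1d2, difference between tissues, the value of 0.071 became -0.10 with plain library totals and ran from -0.14 to 0.21 over leave-one-out fits. For Per1, KPC IL6KO against no tumor fat, the value of -0.30 ran from -0.43 to 0.025 over leave-one-out fits. For Per1, KPC against no tumor fat, the value of 0.0024 became -0.0025 with 10 counts in every library, -0.0070 with DESeq2, -0.0070 with RLE scaling and ran from -0.14 to 0.33 over leave-one-out fits. For Per3, KPC against KPC IL6KO fat, the value of -0.01 became 0.023 with 10 counts in every library, 0.017 with DESeq2, 0.066 with epididymis markers removed, 0.021 with only the groups compared, 0.067 with plain library totals, 0.068 with the replicate block, 0.017 with RLE scaling, 0.018 without both doubted libraries and ran from -0.26 to 0.30 over leave-one-out fits.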
